A study of Mus musculus with 2 samples.

Results

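The genes described here are the nuclear-encoded genes of the mitochondrial respiratory chain in mouse thick ascending limb (TAL). They were chosen by symbol and by their measured counts, as the genes starting with Nduf, Sdh followed by a to d, Uqcr, Cox followed by 4 to 8, or Atp5, without pseudogenes and with at least 20 counts over both libraries. Of 32227 genes in the count tables, 99 carried these symbols and 93 reached the minimum. The 6 genes under it were Cox4i2 (13 counts), Cox6a2 (4), Cox8b (3), Ndufa4l2 (2), Cox8c and Ndufb11b (0 each). The members nearest above it were Cox7b2 with 24 counts, Sdhaf1 with 94 and Cox7a1 with 102. The 1 pseudogene left out was Cox5b-ps. The 93 members lie on 19 chromosomes, 3 of them on X, and their gene lengths run from 1305 to 155941 bases (median 9226, GENCODE M39 on GRCm39).

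The respiratory chain sits in the inner mitochondrial membrane. Complex I (NADH dehydrogenase, most Nduf genes) and complex II (succinate dehydrogenase, Sdha to Sdhd) feed electrons into it, complex III (Uqcr genes) passes them on to cytochrome c, and complex IV (cytochrome c oxidase, Cox genes and Ndufa4) hands them to oxygen. Complex V (ATP synthase, Atp5 genes) uses the resulting proton gradient to make ATP. A few further subunits are encoded in mitochondrial DNA. TAL cells reabsorb salt with the sodium pump and are known for densely packed mitochondria, whereas macula densa (MD) cells, the salt sensors at the end of the TAL, are described as having fewer of them.

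Nuclei came from kidneys of male mice with strain label B6, genotype label WT and age label 12 (no unit given), of the NKCC2-CreERT2 x INTACT line. In these mice tamoxifen switches on the nuclear envelope tag Sun1-sfGFP in cells that express NKCC2, and both libraries come from tamoxifen-treated animals. Green nuclei were sorted by FANS for single-nucleus RNA sequencing. There was 1 library from dissected cortex (a superficial strip) and 1 from dissected medulla (the remaining tissue, deep cortex included). How many animals went into each library is not given in the sources used here. With 1 library per region there is no replicate, so no test was possible and no difference between regions can be told apart from a difference between libraries.

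The libraries held 5442 and 8121 called barcodes with medians of 2427 and 2430 counts, and shared 0 barcodes. Member genes made up 0.529% of all counts in cortex (87031 counts) and 0.594% in medulla (124515). The 5 members with the most counts, Ndufs4, Atp5b, Ndufs1, Sdha and Atp5c1, held 21.9% of the member counts and the first 20 held 51.7%. By complex, 35.4% of member counts belonged to the 37 complex I genes, 7.20% to the 4 of complex II, 8.36% to the 8 of complex III, 16.2% to the 15 of complex IV and 25.5% to the 17 of complex V. The remaining 7.33% belonged to 12 assembly factors of complexes I and II (Ndufaf and Sdhaf genes).

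Nuclei were put into TAL classes by measured counts of other genes. Among barcodes with at least 10 Slc12a1 counts, a nucleus was MD with at least 3 counts of Nos1 and Pappa2 together, otherwise TAL-β with at least 2 of Tmem52b, otherwise TAL-γ with at least 2 of Tmem207 and Gpc5 together, and otherwise TAL-α. This gave 2709 TAL-α, 1326 TAL-β, 232 TAL-γ and 594 MD nuclei in cortex, and 3618, 542, 3327 and 73 in medulla. TAL-α is the remainder, so it may hold nuclei of other classes whose markers were not captured. MD nuclei were shallower, with medians of 1836.5 counts in cortex and 1951 in medulla against 2415 and 2396.5 in TAL-α. Each nucleus was therefore thinned to 1000 counts, which left out 0 nuclei in cortex, and 18 TAL-α and 5 TAL-γ nuclei in medulla. A level is the sum of thinned counts over a class scaled to a common total (CPM), with an exact Poisson 95% interval. Ratios carry a conditional binomial 95% interval. Both cover counting error only and do not stand for differences between animals.

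Marker genes that the rule did not use were set against the class names. MD nuclei held Ptgs2 at 125 CPM in cortex and 123 in medulla (TAL-α 5.91 and 0.833). Bmp3 was at 221 and 192 (TAL-α 24.7 and 2.22) and Slc9a2 at 502 and 438 (TAL-α 199 and 67.8). Oxtr had 0 counts in every class. TAL-β nuclei held Cldn16 at 223 and 279 CPM (TAL-α 113 and 56.1) and Kcnj10 at 177 in both (TAL-α 23.3 and 15.8). They also held 5 distal convoluted and connecting tubule genes at a summed 586 and 277 CPM (TAL-α 143 and 44.4, MD 236 and 82.2). The source of these counts was not tested. Medullary TAL-γ nuclei held Cldn10 (222 CPM) together with Kcnj10 (111). The 232 cortical nuclei under the TAL-γ rule went against that name, with Cldn16 at 194 CPM and Casr at 1392 against 223 and 1587 in TAL-β of that library. Their Cldn10 (86.2 CPM) and Ptger3 (401 CPM) lay between TAL-β (48.3 and 55.8) and cortical TAL-α (181 and 1304). They enter no ratio, but their levels are given below beside those of the other classes. Cortical TAL-α nuclei held Cldn10 at 181 CPM but also Casr at 914 and Pth1r at 297 (668 in cortical TAL-β).

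Promoter sequences of the members are described here. Whether they have a part in the MD levels given below was not tested. In the 300 bases from 250 before to 50 after the start of the canonical transcript (GRCm39), 4 short motifs named after factors known for respiratory genes were searched on both strands. GCGCANGCG, named here for NRF1, was in 19 of 93 member promoters (20.4%) and in 8.08% of 21770 promoters of protein-coding genes. AAGGTCA, named for the estrogen-related receptors, was in 8 members (8.60%) against 4.48%, and CCGGAAGT, of the ETS family, in 5 (5.38%) against 4.35%. AAGATGGCG, named for YY1, was in 2 (2.15%) against 1.34%. Any of the 4 was in 28 members (30.1%) and in 16.9% of all promoters. The promoters of all genes were not matched to the members for base composition. A match is a description of letters and not evidence of binding. For the members that the naming rule picked and that hold a motif, 30 bases around the first one are given 5′ to 3′ on the strand of the gene, with the motif (on either strand) in capitals. Ndufaf4, named below after its value was seen, also holds GCGCANGCG and is not shown:
Cox6a1 (chr5:115487160-115487189): caggaacgggGCGCATGCGcgctctcgctc
Ndufa13 (chr8:70356041-70356070): agctcattctGCGCAGGCGcaatgcttctc
Sdha (chr13:74498438-74498467): cgtttacaggGCGCAGGCGcaccaccactc
Sdhaf4 (chr1:24044746-24044775): ccctcgttgaCGCCTGCGCagagggcgcgg
Sdhd (chr9:50515209-50515238): tcgctggggtGCGCACGCGcggtggcagcg
Atp5g2 (chr15:102579513-102579542): gactcgttggctccggccGCGCATGCGcag
Ndufs1 (chr1:63216198-63216227): gctagaggttaAAGGTCAaggtccgttcct
Atp5e (chr2:174305857-174305886): ttccgctactcaggccTGACCTTcctgctg
Cox8a (chr19:7194969-7194998): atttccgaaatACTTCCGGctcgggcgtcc
All of these genes lie on the minus strand. In Atp5g2, Ndufs1 and Atp5e the motif begins after the start, at bases 39, 21 and 37. Annotated exons of any gene cover all 150 bases before the start in Ndufa13 and Sdhd. They cover 109 of these bases in Cox8a, 100 in Sdha and 41 in Cox6a1. For Ndufb11, a complex I subunit on X with 14 MD counts in cortex, the 150 bases before the start (chrX:20484458-20484607, minus strand) are given whole, and the motif begins 42 bases before the start:
Ndufb11: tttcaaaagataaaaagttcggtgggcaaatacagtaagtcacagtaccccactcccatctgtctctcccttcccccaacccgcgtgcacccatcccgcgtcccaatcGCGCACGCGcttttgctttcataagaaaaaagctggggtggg

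MD nuclei held the lowest summed member level of all classes in both libraries. In cortex the level was 5573 CPM in TAL-α (interval 5485 to 5663), 5750 in TAL-β (5622 to 5881), 5922 in the nuclei under the TAL-γ rule (5613 to 6244) and 2997 in MD (2859 to 3139). In medulla it was 6028 in TAL-α (5948 to 6109), 5810 in TAL-β (5609 to 6017), 6255 in TAL-γ (6170 to 6341) and 2836 in MD (2462 to 3249). The 3 other classes of either library lay within 5573 to 6255 CPM, and neither MD interval reached that range. In cortex MD nuclei held 0.538 times the TAL-α level (0.512 to 0.565) and 0.521 times the TAL-β level (0.495 to 0.549). In medulla, with 73 MD nuclei and 207 member counts, the ratio to TAL-α was 0.470 (0.408 to 0.539). Since the 2 cortical ratios share the MD nuclei they are not separate evidence.

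**Figure D1:**
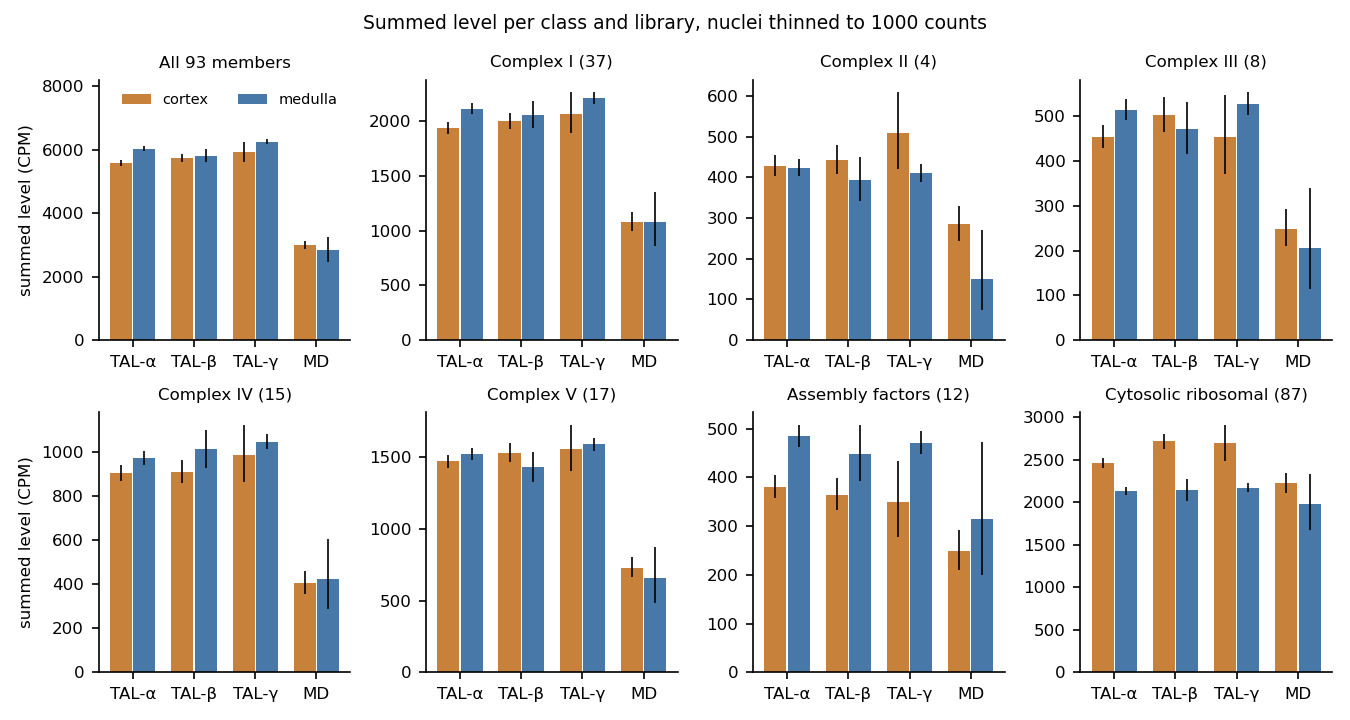
Summed level in CPM (linear axes from 0) for the 93 members, their complexes and, for comparison, 87 cytosolic ribosomal protein genes, by class and library, with exact Poisson 95% intervals as bars. In each of the 6 member groups both MD bars lie below the TAL-α, TAL-β and TAL-γ bars of the same library. The ribosomal bars of MD are also the lowest of each library but lie closer to the others.

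All 6 groups of members were lower in MD than in TAL-α nuclei. Of the 93 members, 82 had at least 50 thinned counts over both classes of the cortex, a filter that the far larger TAL-α class mostly decides. Of these 82, 59 were at or under 1/1.5 of their TAL-α level, where 18.6% of all 8191 genes with enough counts were, and 0 were at or over 1.5 times it, where 14.4% of all genes were. The median ratio was 0.542 over these members and 1.01 over all genes. The 11 members under the minimum had 0 to 6 MD counts each, with ratios from 0 to 1.66 that carry no weight. In medulla, 58 of 84 members were at or under 1/1.5 (33.7% of all genes) and 4 at or over 1.5 (24%), with a median of 0.412 over the members and 0.930 over all genes. There 21 members had 0 MD counts, and the levels of single members given below for medullary MD nuclei rest on 1 (Cox4i1) to 17 counts (Ndufs4).

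**Figure D2:**
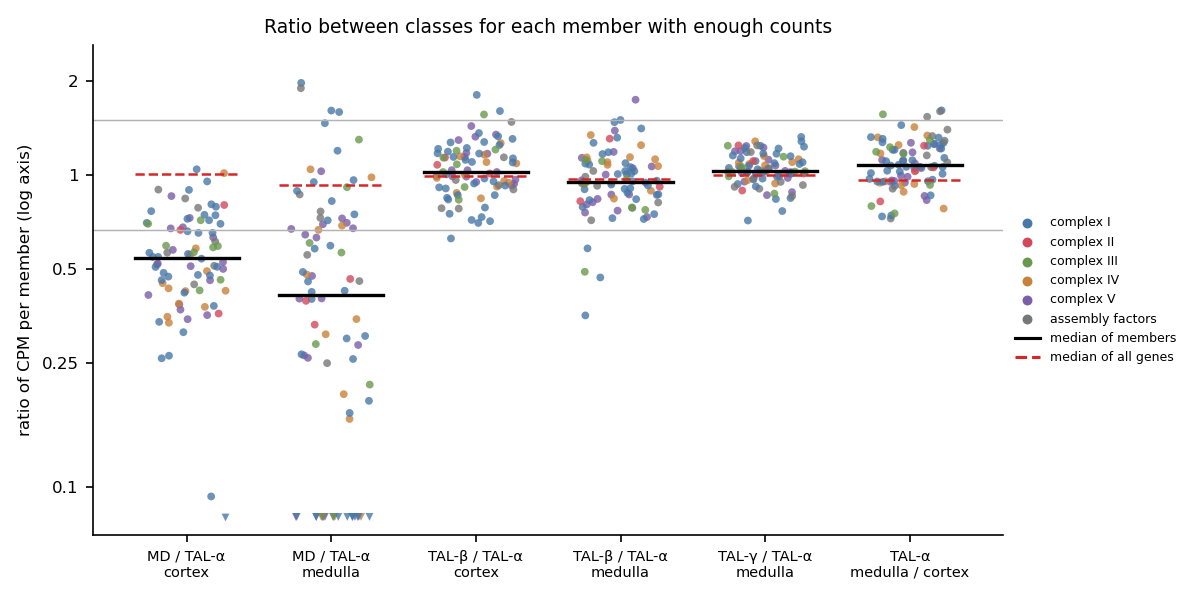
Ratio of CPM between 2 classes (log axis) for each member with at least 50 thinned counts over them, coloured by complex, with members under 0.08 drawn as triangles at 0.08. Black lines are the medians of the members, dashed red lines those of all genes, and grey lines mark 1.5 and 1/1.5. The members of both MD columns lie mostly under 1, whereas the 4 other columns scatter around 1.

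Complex I was summed at 1936 CPM in TAL-α and 1081 in MD nuclei of the cortex, a ratio of 0.558 (0.514 to 0.606), and the medulla gave 0.512 (0.405 to 0.639). Of its 37 genes, 35 had enough counts and 23 of them were at or under 1/1.5 (18.6% of all genes). Ndufs1, which encodes an iron-sulfur subunit of the electron-input arm, was at 259 CPM in TAL-α, 247 in TAL-β, 272 in cortical nuclei under the TAL-γ rule and 131 in MD. In medulla its levels were 277, 256, 289 and 164 CPM in the same order. The cortical MD value is below the others, the medullary one rests on 12 counts (interval 84.9 to 287) and cannot be told apart from them, and the cortical ratio to TAL-α was 0.507 (0.396 to 0.642). Ndufs4, an accessory subunit, was at 293, 267, 336 and 205 CPM in cortex and 282, 308, 275 and 233 in medulla. Its cortical MD level was again the lowest, and the medullary one (17 counts, 136 to 373) overlapped the others. The cortical ratio was 0.702 (0.575 to 0.850), an interval that overlaps that of Ndufs1. The lowest ratios among the members with at least 50 thinned counts belonged to the accessory subunits Ndufa11 (0 MD against 57 TAL-α thinned counts), Ndufb7 (1 against 49) and Ndufb6 (3 against 53). All of them lay close to that minimum and passed it through their TAL-α counts. Thinning drew few of their counts. Without it, Ndufa11 had 13 MD counts and a ratio of 0.477 (0.249 to 0.840), Ndufb7 0.182 (0.0488 to 0.477) and Ndufb6 0.390 (0.183 to 0.737).

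2 accessory subunits of complex I had ratios near 1 that depended on the setting. Ndufa2 was at 25.8 CPM in TAL-α and 26.9 in MD nuclei of the cortex, a ratio of 1.04 (0.565 to 1.81). Ndufb11 was at 24.7 and 23.6 CPM, a ratio of 0.953 (0.495 to 1.71). They rest on 16 and 14 MD counts, and both intervals reach down to 0.565 or less, so a level near that of the other members is within counting error. Over 12 other settings Ndufa2 ranged from 0.337 (stricter classes) to 1.09 and Ndufb11 from 0.580 (nuclei with few counts of other cell types) to 1.12.

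Complex II showed unequal subunits. Its 4 genes summed to 429 CPM in TAL-α and 285 in MD nuclei, a ratio of 0.663 (0.561 to 0.780). Sdha, which encodes the flavoprotein that oxidises succinate, was at 242 CPM in TAL-α, 244 in TAL-β, 328 in cortical nuclei under the TAL-γ rule and 194 in MD, and the ratio of MD to TAL-α was 0.801 (0.651 to 0.978). Sdhb, which encodes the iron-sulfur partner of Sdha, was at 108, 116, 64.7 and 38.7 CPM in the same classes, a ratio of 0.359 (0.224 to 0.550). The intervals of the 2 ratios do not overlap. In the membrane anchors the ratios were 0.666 for Sdhc (0.424 to 1.01) and 0.616 for Sdhd (0.189 to 1.57), and Sdhd rests on 5 MD counts. In the medulla Sdha was at 248 CPM in TAL-α and 82.2 in MD, a ratio of 0.331 (0.121 to 0.723), and Sdhb at 88.6 and 41.1, a ratio of 0.464 (0.0951 to 1.37), on 6 and 3 MD counts, and these overlapping intervals give no order of the 2 genes there.

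Complex III was at 453 CPM in TAL-α and 249 in MD nuclei, a ratio of 0.550 (0.460 to 0.652). Of its 8 genes, 6 were at or under 1/1.5 (18.6% of all genes). Uqcr10 had a ratio of 0.565 (0.291 to 1.01) and Uqcrb, a small ubiquinone-binding subunit, one of 0.715 (0.293 to 1.52).

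Complex IV had the lowest cortical ratio of the groups, 903 CPM in TAL-α against 404 in MD, or 0.447 (0.390 to 0.511). This interval overlaps those of complexes III and V. In medulla its ratio of 0.437 (0.297 to 0.622) was not the lowest. Complexes II, III and V were at 0.356, 0.399 and 0.432 there, with overlapping intervals. Of 12 genes with enough counts in cortex, 11 were at or under 1/1.5 (18.6% of all genes). Cox4i1, the main form of the largest nuclear-encoded subunit, was at 87.1, 82.2, 94.8 and 33.7 CPM in TAL-α, TAL-β, nuclei under the TAL-γ rule and MD of the cortex, and at 83.1, 92.3, 79.8 and 13.7 in medulla. Cox6b1 was at 85.3, 74.7, 94.8 and 28.6 CPM in cortex and 79.7, 107, 87.3 and 54.8 in medulla. The medullary MD values rest on 1 and 4 counts, and their intervals overlap those of other classes. In cortex MD was lowest for both genes, with ratios to TAL-α of 0.386 (0.232 to 0.611) and 0.336 (0.192 to 0.549). Cox8a had a ratio of 0.433 (0.278 to 0.648), Cox7a2 of 0.425 (0.207 to 0.789), Cox6a1 of 0.492 (0.284 to 0.801) and Ndufa4 of 0.581 (0.299 to 1.04). Cox7a2l was at 23.3 CPM in TAL-α and 23.6 in MD, a ratio of 1.01 (0.524 to 1.83) on 14 MD counts. Over 12 other settings it ranged from 0.505 (no filter on nuclei, or doublets kept) to 1.04 (at most 1% mitochondrial counts). It was at 0.796 without thinning and 0.641 with another seed, so its level depends on the setting. Its interval lies above that of the summed complex (0.390 to 0.511) but overlaps those of the complex IV genes named here.

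Complex V was at 1471 CPM in TAL-α and 729 in MD nuclei, a ratio of 0.496 (0.448 to 0.547). Of its 17 genes, 13 were at or under 1/1.5 (18.6% of all genes). Atp5b, the catalytic β subunit, was at 280 CPM in TAL-α, 259 in TAL-β, 302 in nuclei under the TAL-γ rule and 140 in MD of the cortex, and at 264, 229, 271 and 68.5 CPM in medulla. Atp5c1, the rotating γ subunit, was at 217, 225, 203 and 113 CPM in cortex and 241, 229, 243 and 68.5 in medulla. MD was lowest for both in both libraries (5 MD counts each in medulla, interval 22.2 to 160), with cortical ratios of 0.499 (0.393 to 0.627) and 0.520 (0.397 to 0.670). The 3 genes that encode the same mature c-ring subunit had ratios of 0.370 for Atp5g1 (0.165 to 0.728), 0.630 for Atp5g2 (0.379 to 0.998) and 0.384 for Atp5g3 (0.211 to 0.651), with intervals that overlap. Atp5e, the small ε subunit, had 0.855 (0.369 to 1.76).

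The 12 assembly factors, which help to build complexes I and II and are not part of them, had a ratio of 0.654 (0.547 to 0.778). Of 7 with enough counts, 4 were at or under 1/1.5 (18.6% of all genes). The interval of the 12 overlaps those of complexes I, II and III. It lies above that of complex IV, and meets that of complex V at its limit (0.547 for both).

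**Figure D3:**
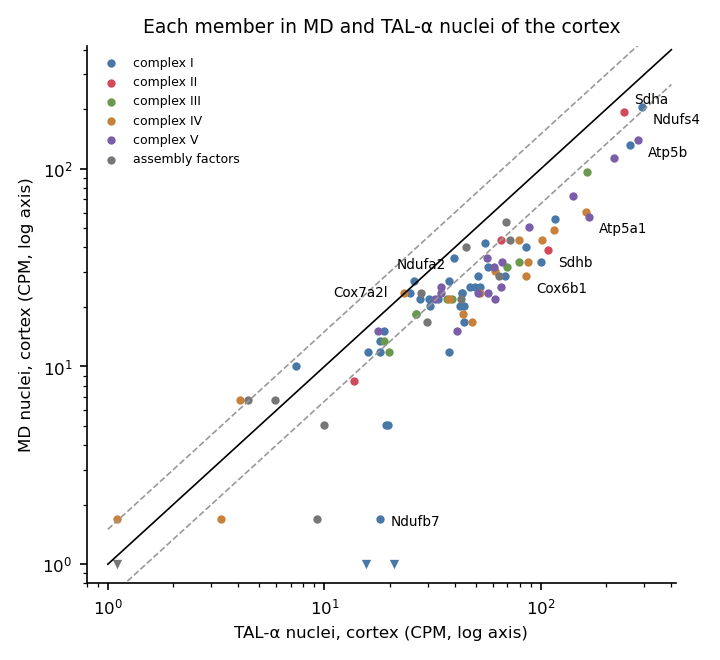
CPM of each member in MD nuclei against TAL-α nuclei of the cortex (log axes), coloured by complex, with the solid line at equal levels, dashed lines at 1.5 times and 1/1.5, and members without MD counts as triangles at 1 CPM. Most members lie under the lower dashed line, Sdha lies above it and Ndufa2 and Cox7a2l on the line of equality.

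Isoforms known from heart and skeletal muscle had few counts. Cox7a1 had 102 counts over both libraries and Cox6b2, known from testis, lay between 0 and 6.79 CPM in every class, while Cox6a2 and Cox8b did not reach the minimum of counts. Cox4i2 and Ndufa4l2, both known to respond to low oxygen, had 13 and 2 counts over both libraries.

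The lower level was spread over the MD nuclei rather than held by a few. Per 1000 counts, a nucleus held a median of 5 member counts in cortical TAL-α (quartiles 4 and 7), 5 in TAL-β and 3 in MD (2 and 4). Of 594 cortical MD nuclei 40 (6.73%) had 0 member counts against 21 of 2709 TAL-α nuclei (0.775%), and 14 MD nuclei (2.36%) had 8 or more against 579 TAL-α nuclei (21.4%). In medulla 0 of 73 MD nuclei had 8 or more, against 956 of 3600 TAL-α nuclei (26.6%).

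**Figure D4:**
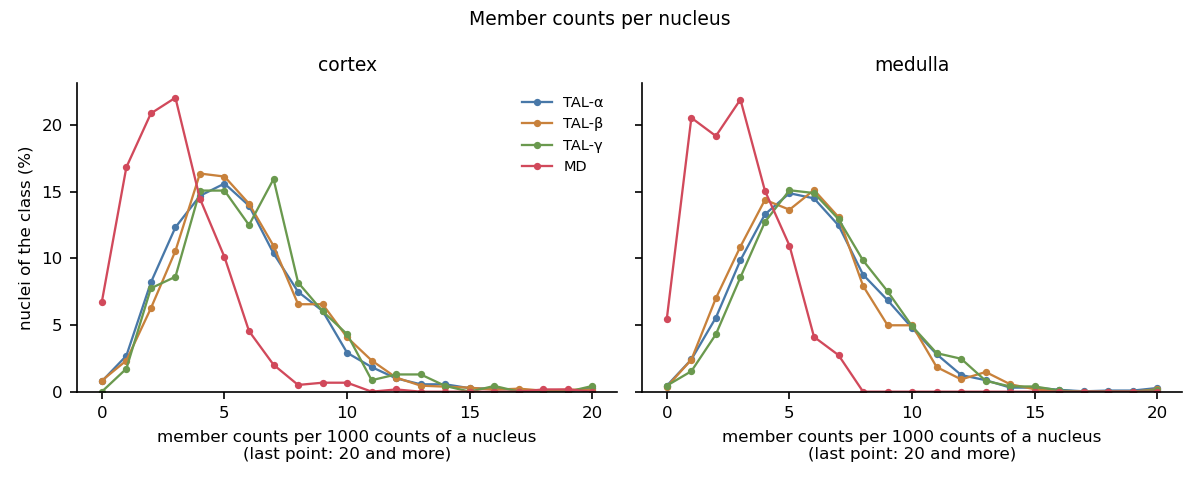
Share of nuclei (%) with each number of member counts after thinning to 1000 counts, by class and library, the last point holding 20 and more. The MD lines peak at 3 counts and the other classes at 4 to 7, with broad overlap at 3 to 5.

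Nuclei near the limit of the MD rule were followed by their Nos1 and Pappa2 counts, without a test since the rule used these genes. In cortex the member level was 5763 CPM in 3950 nuclei with 0 such counts, 4769 in 199 nuclei with 1, 3246 in 118 nuclei with 2, 3223 in 233 nuclei with 3 to 5, 2832 in 214 nuclei with 6 to 11 and 2878 in 147 nuclei with 12 or more. The nuclei with 2 counts, just outside the rule, were at the level of those just inside. In medulla the order was 6125 CPM with 0 counts, 5398 with 1, 3600 with 2 (10 nuclei) and 2889, 3000 and 2571 in the 3 higher groups.

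Depth moved with the difference. Without thinning, the ratio of MD to TAL-α in cortex was 0.488 (0.432 to 0.552) in nuclei under 1500 counts and 0.524 (0.503 to 0.546) from 1500 to 3000 counts, but 0.806 (0.762 to 0.852) in the 52 MD nuclei with 3000 or more. These deep nuclei carried other markers too. Their 8 proximal tubule genes summed to 7241 CPM, against 248 CPM in MD nuclei of 1500 to 3000 counts. Their Nos1 and Pappa2 level was 1282 against 4905 CPM. Since the rule called MD from at least 3 counts of these genes at any depth, deeper nuclei could pass it at a lower level. Deep cortical TAL-α nuclei held the same proximal tubule genes at 6087 CPM. Over all depths the proximal tubule genes, all 8 of them detected in each cortical class, were at 1631 CPM in cortical TAL-α, 1822 in TAL-β and 753 in MD, and at 456, 570 and 438 in medulla. Barcodes with at least 10 proximal tubule counts and at most 2 of Slc12a1 held members at 5333 CPM in cortex (90 barcodes) and 4283 in medulla (99). With nuclei restricted to fewer than 3 proximal tubule counts and fewer than 3 of the other cell types' markers, the cortical ratio was 0.544 (0.516 to 0.574). With doublets kept it was 0.588 (0.562 to 0.616). The part of proximal tubule RNA in the values of the deep nuclei was not tested.

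Barcodes outside the called nuclei held a higher member level than any class. Those with 10 to 200 counts held members at 8030 CPM in cortex and 8347 in medulla, and the 13 mitochondrially encoded genes at 10676 and 8358 CPM, against 1427 and 664 in TAL-α. If all mitochondrially encoded counts of a class came from that RNA, it would be at most 13.4% of the counts of cortical TAL-α nuclei and 8.09% of those of MD. Subtracting these largest shares left 5194 and 2554 CPM, a ratio of 0.492.

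Gene length and promoter letters were set beside the difference. The ratio of MD to TAL-α in cortex was 0.553 (0.494 to 0.618) over the 31 shortest members (up to 6929 bases), 0.476 (0.434 to 0.522) over the middle 31 and 0.572 (0.534 to 0.613) over the 31 longest. The 19 members with GCGCANGCG had a summed ratio of 0.630 (0.564 to 0.702), and the 74 without it one of 0.517 (0.489 to 0.547). Sdha holds the motif, with a ratio of 0.801, and has the most counts of the 19. It had 8701 counts over both libraries, and the next, Ndufaf4, had 3303. A ratio of the 19 without Sdha was not computed. Among the other genes printed above that hold the motif, Cox6a1 had a ratio of 0.492 (0.284 to 0.801) and Ndufa13 one of 0.507 (0.276 to 0.866). Sdhd was at 0.616 (0.189 to 1.57), Atp5g2 at 0.630 (0.379 to 0.998) and Sdhaf4 at 1.14 (0.277 to 3.53). Ndufb11 holds it too and had 0.953 (0.495 to 1.71), an interval that overlaps those of all these genes. A part of the motif in these ratios was not tested.

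Genes of related pathways were taken from lists. Between MD and TAL-α nuclei of the cortex, the 18 TCA cycle genes had a summed ratio of 0.556 (0.516 to 0.598) with 12 of 18 genes at or under 1/1.5, and the 16 glycolysis genes one of 0.447 (0.404 to 0.493) with 13 of 14. The 13 mitochondrially encoded genes had 0.605 (0.551 to 0.664), with 10 of 11. Uncalled barcodes of the cortex held these 13 genes at 10676 CPM. The part of RNA from outside the nuclei in their ratio was not tested. The 35 electron carriers and assembly factors of the respiratory chain had 0.773 (0.719 to 0.831), with 10 of 25 at or under 1/1.5 and 1 at or over 1.5. Housekeeping genes without a part in energy metabolism, the 87 cytosolic ribosomal protein genes, had 0.903 (0.851 to 0.958), with 11 of 76 at or under 1/1.5. For MD to TAL-β in cortex the ribosomal genes had 0.818 (0.767 to 0.871), with 17 of 46 at or under 1/1.5 (19.1% of all genes). The 11 regulators of mitochondrial biogenesis, such as Ppargc1a and Esrrg, summed to 1.03 (0.993 to 1.06), but 4 of them were at or under 1/1.5 and the median of their ratios was 0.693. Of all 8191 genes with enough counts, 18.6% were at or under 1/1.5 and 14.4% at or over 1.5, and their median ratio was 1.01. The interval of the 93 members overlaps those of the TCA cycle and mitochondrially encoded genes and lies above that of glycolysis. The ratio of the biogenesis regulators varied between comparisons, with 1.08 (1.06 to 1.09) for TAL-γ to TAL-α in medulla. It was 0.801 (0.732 to 0.874) for MD to TAL-α in medulla and 1.27 (1.22 to 1.32) for MD to TAL-β in cortex.

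**Figure D5:**
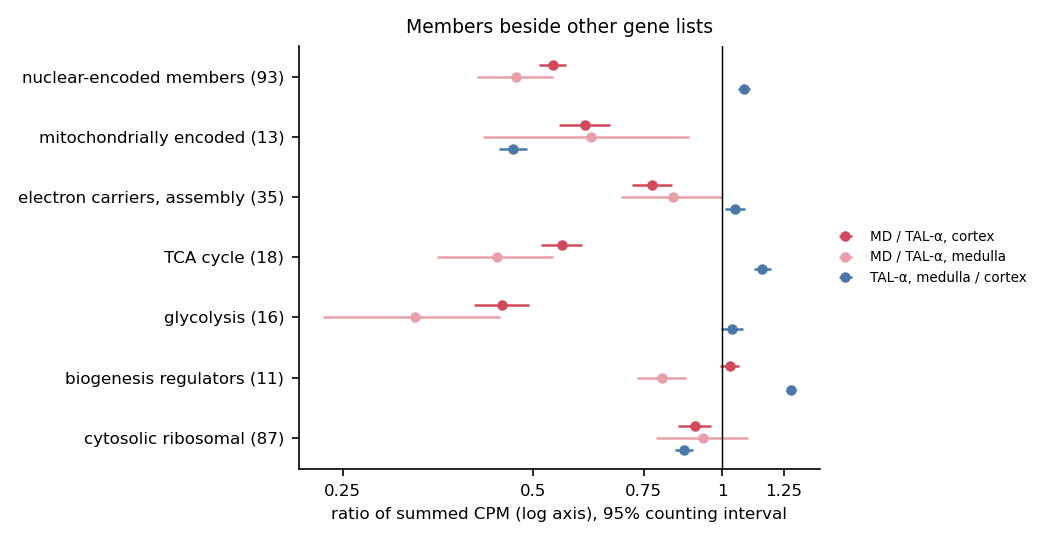
Ratio of the summed CPM (log axis) with conditional binomial 95% intervals for the members and 6 other gene lists, in MD against TAL-α nuclei of each library and in medullary against cortical TAL-α nuclei. Members, TCA cycle and glycolysis lie left of 1 in both MD comparisons, at 0.538, 0.556 and 0.447 in cortex, and the mitochondrially encoded genes stand apart at 0.465 between the regions.

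TAL-β, TAL-γ and TAL-α nuclei differed little. The ratio of TAL-β to TAL-α was 1.03 in cortex (1.00 to 1.06) and 0.964 in medulla (0.928 to 1.00), and that of TAL-γ to TAL-α in medulla 1.04 (1.02 to 1.06). These comparisons share the TAL-α nuclei of their library with each other and with the MD comparison. In cortex 3 of 83 members were at or over 1.5 (5.46% of all genes), the complex I subunits Ndufc1 at 1.81 (1.14 to 2.86) and Ndufv3 at 1.602 (1.03 to 2.47) and Uqcrb at 1.56 (1.00 to 2.42). At or under 1/1.5 was 1 member (6.56% of all genes), Ndufs6 at 0.625 (0.326 to 1.13). In medulla 1 of 84 was at or over 1.5 (7.31% of all genes), Atp5e at 1.74 (0.938 to 3.06), and 4 were at or under 1/1.5 (12.3% of all genes). These were Ndufv3 at 0.354 (0.0941 to 0.945), Ndufs6 at 0.469 (0.167 to 1.06), Uqcr10 at 0.489 (0.248 to 0.878) and Ndufa2 at 0.581 (0.226 to 1.254). Ndufv3 was thus above TAL-α in cortical TAL-β nuclei and below it in medullary ones, on 40 and 4 TAL-β counts. Ndufc1 and Ndufs6 in cortex, and Atp5e, Ndufs6 and Ndufv3 in medulla, changed side of 1 under at least 1 of 12 other settings. Without thinning the cortical ratios were 1.24 for Ndufc1, 1.41 for Ndufv3, 1.37 for Uqcrb and 0.784 for Ndufs6. Between TAL-γ and TAL-α 0 of 87 members passed 1.5 in either direction (2.94% of all genes higher, 5.24% lower). The extremes there were Ndufb1 at 1.32 (1.01 to 1.73), Cox7a2 at 1.28 (1.02 to 1.61), Ndufs7 at 1.28 (1.05 to 1.56), Ndufs6 at 0.714 (0.5002 to 1.01), Ndufv3 at 0.766 (0.528 to 1.103) and Ndufa5 at 0.837 (0.615 to 1.14). Of these 6, 4 changed side of 1 under other settings, Ndufb1 down to 0.835, Ndufs7 to 0.941, and Ndufa5 and Ndufv3 up to 1.08 and 1.003. Without thinning Ndufb1 was at 1.01 and Ndufa5 at 1.04. Of the complexes, complex III lay farthest from 1 in TAL-β nuclei of either library, at 1.11 in cortex (1.01 to 1.22) and 0.915 in medulla (0.799 to 1.04). Without thinning it was close to others. In cortex it was then at 1.055 (0.998 to 1.114), beside 1.052 for complex II. In medulla it was at 0.933, beside 0.947 for complex II and 0.948 for complex V. Set directly against TAL-β, medullary TAL-γ nuclei held 1.08 times the member level (1.04 to 1.12). There 6 of 84 members were at or over 1.5 (13.7% of all genes), 4 of them in complex I and 2 in complex III, and 0 were at or under 1/1.5 (10.1%).

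Medullary TAL-α nuclei held slightly more member counts than cortical ones, 6028 against 5573 CPM, a ratio of 1.08 (1.06 to 1.104). All genes had a median ratio of 0.965, and the median of the 88 members with enough counts was 1.07. At or over 1.5 were 4 members (5.48% of all genes) and at or under 1/1.5 were 0 (13.8%). The 4 were the complex I subunit Ndufc1 at 1.61 (1.11 to 2.37), Sdhaf4 at 1.599 (0.859 to 3.10), Uqcrb at 1.56 (1.11 to 2.23) and Ndufaf4 at 1.54 (1.29 to 1.83). Without thinning the ratio of Ndufc1 was 1.14, that of Sdhaf4 1.59 and that of Uqcrb 1.35. Ndufaf4 was named after its value was seen. Ndufaf4, an assembly factor of complex I, was at 71.6 CPM in TAL-α, 66.4 in TAL-β and 43.8 in MD of the cortex, and at 110, 103 and 27.4 (2 counts) in medulla. The assembly factors together had 1.27 (1.18 to 1.37) and complexes I to V between 0.987 and 1.13. The lowest members were Ndufaf3 at 0.725 (0.406 to 1.29), Ndufa13 at 0.736 (0.574 to 0.942) and Ndufb11 at 0.741 (0.520 to 1.06). All of them rose above 1 under at least 1 other setting, Ndufa13 under 4 of 12 (up to 1.06), Ndufaf3 at 1% mitochondrial counts (1.17) and Ndufb11 with stricter classes (1.004). Cox8a and Sdhb were at 0.780 (0.658 to 0.924) and 0.822 (0.699 to 0.967). TAL-β nuclei of medulla and cortex held 5810 and 5750 CPM, a ratio of 1.01 (0.969 to 1.05). Of 69 members with enough counts, 3 were at or over 1.5 (4.09% of all genes) and 4 at or under 1/1.5 (11.2%).

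The genes of the same complexes that are encoded in mitochondrial DNA did not share this direction. Their 13 transcripts summed to 664 CPM in medullary and 1427 in cortical TAL-α nuclei, a ratio of 0.465 (0.442 to 0.490). Of 11 with enough counts, 11 were at or under 1/1.5 (13.8% of all genes). The 87 ribosomal protein genes had 0.868 (0.840 to 0.897). Mitochondrial transcripts lie outside the nucleus, and the RNA of uncalled barcodes held them at 10676 CPM in cortex and 8358 in medulla. Its part in the difference was not tested. The 11 biogenesis regulators had 1.28 (1.26 to 1.31) and the TCA cycle genes 1.16 (1.12 to 1.19).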

How the data were processed

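Nuclei of 2 libraries (cortex and medulla) were sequenced with PIPseq chemistry. The authors used PIPseeker for alignment (GRCm39) and counting. The deposited values are raw integer counts of each gene in each barcode, given once for every barcode and once for called nuclei. They precede the authors' steps in Seurat (4.4.0 per the submitters' processing notes), doublet removal and ambient RNA correction included. The deposited cluster numbers and UMAP coordinates were not used.

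The matrices were read in Python 3.11.15 (numpy 2.4.6, scipy 1.17.1, pandas 2.3.3). Called barcodes needed 500 genes, and no more than 5% of counts from mitochondrially encoded genes, which 1 medullary barcode exceeded. Scrublet (scanpy 1.11.5) marked 359 cortical barcodes (6.60%), which were removed. In medulla it marked 2 (0.0246%), so the 5% with the highest scores, 406 barcodes, were removed. This left 4861 cortical and 7560 medullary nuclei in the TAL classes. Each was thinned to 1000 counts without replacement (seed 1), and counts were summed per class and library. CPM carry exact Poisson and ratios conditional binomial 95% intervals, for counting error only. Of these, only the ratio intervals were tested on simulated nuclei. Those were drawn from the summed cortical TAL-α profile with known folds, and differed within a group only by depth and counting. Since nuclei do not stand for animals, no p-value was computed. A member or gene entered the counts of ratios past 1.5 with at least 50 thinned counts over the 2 classes, and ratios needed 50 nuclei per class.

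Named genes were the 3 highest and 3 lowest ratios of each of 5 comparisons, fixed isoforms, the 5 members with most counts and Sdha to Sdhd. The members, classes and lists were chosen with earlier results of these data known. The comparisons of MD with TAL-β in cortex and with TAL-α in medulla, of TAL-γ with TAL-β and of the TAL-β nuclei of both regions, the depth bins, the promoters and the subtraction of RNA from uncalled barcodes were added after seeing the data. Positions and promoters come from GENCODE M39 on GRCm39, with all 93 members matched by Ensembl identifier. Of these, 16 ATP synthase genes have newer symbols there (Atp5b is Atp5f1b, and Atp5g1 to Atp5g3 are Atp5mc1 to Atp5mc3).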

Additional observations from a re-analysis of the deposited data

Results flagged for a closer look

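The ratio of TAL-β to TAL-α nuclei for the summed member level was above 1 in cortex (1.03) and below 1 in medulla (0.964). Each region is 1 library, and the difference between the regions was not tested.

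Barcodes with 10 to 200 counts that were not called as nuclei held the members at 8030 CPM (cortex) and 8347 CPM (medulla). These levels lay above every nuclear class of the same library. Apart from the subtraction of their RNA, these barcodes enter no ratio.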

How the results depend on the processing

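Summed ratios were recomputed under 12 other settings and 1 added after seeing the data. All kept their side of 1. The ratio of MD to TAL-α in cortex ranged from 0.492 to 0.593. It moved out of its interval without thinning (0.593), with no filter on nuclei or with doublets kept (0.588 each) and with the largest share of uncalled-barcode counts subtracted (0.492). The ratio of medullary to cortical TAL-α ranged from 1.06 to 1.12 and moved out of its interval with nuclei of few counts of other cell types (1.12), divided by the median ratio of all genes (1.12) and with that subtraction (1.12). The other ranges were 1.01 to 1.05 for TAL-β to TAL-α in cortex, 0.929 to 0.995 in medulla and 1.03 to 1.05 for TAL-γ to TAL-α, all within the intervals.

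Of 82 members, 59 were at or under 1/1.5 of their TAL-α level in cortical MD nuclei, and 33 were at or under 1/2 (9.75% of all genes). With a limit of 5/4, the members higher and lower were 14 and 9 of 83 for TAL-β to TAL-α in cortex (15.1% and 16.5% of all genes), 9 and 15 of 84 in medulla (18.1% and 25.1%), 3 and 2 of 87 for TAL-γ to TAL-α (10.9% and 13.8%) and 20 and 6 of 88 for medullary to cortical TAL-α (14.5% and 25.7%). Without thinning and at 1.5 they were 1 and 1 (5.78% and 4.77%), 0 and 1 (7.52% and 8.41%), 0 and 0 (2.92% and 5.42%), and 1 and 1 (4.72% and 16.2%).

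Of the 30 highest and lowest ratios of members, 18 changed side of 1 under at least 1 of the 12 settings. These were 3 of 6 for MD to TAL-α (Ndufa2, Ndufb11 and Cox7a2l), 3 of 6 for TAL-β in cortex (Ndufc1, Ndufs6 and Ndufb11), 5 of 6 in medulla (Atp5e, Ndufb7, Ndufb8, Ndufs6 and Ndufv3), 4 of 6 for TAL-γ (Ndufb1, Ndufs7, Ndufa5 and Ndufv3) and 3 of 6 for medullary to cortical TAL-α (Ndufa13, Ndufaf3 and Ndufb11). Against TAL-α in medulla, Atp5e in TAL-β (1.74 as reported) was at 0.921 when thinned to 1500 counts, 0.729 with another seed, 0.702 without filters, 0.731 with doublets kept, 0.924 at 1% mitochondrial counts, 0.891 with few counts of other cell types, 0.650 with stricter classes and 0.822 at 20 Slc12a1 counts. Ndufs6 reached 1.13 when thinned to 1500 counts, and Ndufv3 reached 1.09 with another seed, 1.245 without filters and 1.02 with doublets kept. In cortex Ndufc1 was at 0.812 at 1% mitochondrial counts, and Ndufs6 at 1.02 with another seed and 1.03 both without filters and with doublets kept. The causes were not tested.

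No paired analysis was possible because each region is 1 library. With 73 medullary MD nuclei single members rest on 17 counts or fewer there, and all intervals cover counting error only.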
